A study of Mus musculus with 2 samples.

Results

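Cytosolic ribosomal protein genes encode the proteins of the large and small subunits of the ribosome that translates nuclear-encoded messages. Members were chosen by gene symbol alone: names made of Rpl or Rps and a number, which a single letter a, x, y or l and then 1 digit may follow, together with Rplp0, Rplp1, Rplp2 and Rpsa, leaving out genes marked as pseudogenes in their symbol, with at least 100 unique molecular identifiers (UMIs, each standing for 1 captured RNA molecule) over both libraries. This gave 84 members, 51 of the large and 33 of the small subunit, of 89 matching symbols and 55450 genes in all. Just inside the minimum lay Rpl32l with 109 and Rpl3l with 115 UMIs, and just outside it Rps3a3 with 90 and Rpl39l with 68; Rps3a2, Rps12l1 and Rpl10l, with 67, 4 and 0, were also left out. The members lie on 19 chromosomes, 4 of them on X, and 3 (Rps4l, Rpl32l and Rpl6l) are processed pseudogenes in GENCODE vM21 although their symbols do not say so.

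The data are droplet-based 3 prime single-cell libraries from tumour tissue of 2 mouse liver cancer models, 1 library per model. In C57BL/6 mice, plasmids with Sleeping Beauty transposase were pushed into the liver by hydrodynamic tail vein injection. NRAS.MYC.ND animals received 19 μg of human N-Ras, 1 μg of human c-Myc and 2 μg of transposase plasmid; AKT1.MYC animals received 10 μg of Akt1, 10 μg of human c-Myc and 5 μg of transposase plasmid, so that both models carry c-Myc, at unequal doses, and neither group is an uninjected control. Tumours were taken 14 weeks later and live cells enriched; the number of animals per library and the promoters driving the oncogenes are not given in the sources used here, and "ND" is not spelled out. The comparison asks how the same cell types differ between tumours of the 2 models. With 1 library per model there is no replicate, so no difference below was tested, a difference between models cannot be told apart from a difference between these libraries, and all intervals are exact 95% intervals that cover counting error only.

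A ribosome needs its proteins in fixed proportion, and their messages are among the most abundant in a growing cell. Many of these messages begin with a run of C and T letters (a terminal oligopyrimidine tract), through which the mTOR kinase, which acts downstream of AKT, adjusts how much of them is translated. MYC is known to raise transcription of ribosomal protein genes and of ribosome biogenesis factors, and a few ribosomal proteins have close relatives whose use differs between tissues.

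RefSeq promoter windows on GRCm38.p6 were matched to 62 of the 84 members. A run of at least 8 C or T letters on the transcribed strand, between 40 bases before and 20 after the RefSeq start, was present in 36 of the 62 (58.1%), against 27.2% of 27025 genes with a window. In the whole 300-base window, 250 bases before and 50 after the start, and on either strand, CTTTCC was found in 31 of the 62 members against 29.3% of all genes, CCGGAAG in 40.3% against 9.93%, AAGATGGC in 9.68% against 3.19% and CACGTG in 9.68% against 8.09%; CTTTCC can overlap the C and T run. The 5 windows printed here, 60 bases each on the gene's strand from 40 bases before the start, belong to 2 members whose share of ribosomal protein UMIs was higher in AKT1.MYC (Rps18, Rps27), 2 whose share was lower (Rps10, Rpl15) and the paralog Rpl22l1. Capitals mark the longest run of C and T. They lie at chr17:33955646-33955705 (minus strand), chr3:90213629-90213688 (minus), chr17:27635225-27635284 (minus), chr14:18270967-18271026 (minus) and chr3:28805468-28805527 (plus).
Rps18: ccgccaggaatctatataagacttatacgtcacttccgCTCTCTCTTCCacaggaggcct
Rps27: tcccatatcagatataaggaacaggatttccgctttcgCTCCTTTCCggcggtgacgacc
Rps10: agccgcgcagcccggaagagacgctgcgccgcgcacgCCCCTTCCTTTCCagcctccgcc
Rpl15: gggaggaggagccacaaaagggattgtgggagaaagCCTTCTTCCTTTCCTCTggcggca
Rpl22l1: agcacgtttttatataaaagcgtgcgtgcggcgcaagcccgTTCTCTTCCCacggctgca
The runs were 11 bases long in Rps18, 9 in Rps27, 13 in Rps10, 17 in Rpl15 and 10 in Rpl22l1, and each overlapped the start site or began 1 base after it. The windows were picked for having a run there, and some other members described below as higher or lower did not. The longest run was 5 bases in Rpl37a and 6 in Rpl24, and those of Rpl27 (9 bases) and Rps7 (8 bases) began at positions -40 and -29 from the start. The windows of Rpl37a and Rpl27 end upstream of the GENCODE gene starts printed below, so they do not cover those starts. Rpl13a, described below as lower, had a run of 14 bases that began 2 bases after the start.

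The NRAS.MYC.ND library held 6312 barcodes and the AKT1.MYC library 10766, of which 5961 and 10310 were kept, with medians of 4387 and 1868.5 UMIs. No kept cell lacked ribosomal protein UMIs, and these made up 14.1% and 16.2% of all UMIs in kept cells. Cells were assigned to a type by UMIs of its marker genes, no ribosomal protein gene among them, and 4771 (80.0%) and 6851 (66.5%) were given a type; 9 and 13 of these passed both the hepatocyte-lineage and the duct-like gate and count only in the pooled epithelium. The 2 libraries shared 17 barcodes. Epithelial markers of hepatocytes and ducts summed to 92.7 and 101 per 10000 UMIs over all kept cells. The hepatocyte-lineage gate held 255 cells in NRAS.MYC.ND against 27 in AKT1.MYC, and the duct-like gate 50 against 2471, so the epithelial cells of the second library were mostly duct-like.

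Lymphocytes carried the largest ribosomal protein share and neutrophils and erythroid cells the smallest. In NRAS.MYC.ND the share of UMIs was 24.5% in B cells, 20.1% in T cells, 18.8% in conventional dendritic cells, 17.4% in plasmacytoid dendritic cells and 16.9% in hepatocyte-lineage cells. It lay between 11.6% and 11.9% in endothelial cells, mononuclear phagocytes (macrophages and monocytes) and duct-like cells, and was 5.93% in erythroid cells and 4.45% in neutrophils. The 3 middle types differed by less than the quartile range of their own cells. In AKT1.MYC it was 27.9% in T cells, between 15.5% and 16.6% in phagocytes, duct-like cells, fibroblasts and endothelial cells, 11.1% in erythroid cells and 9.79% in neutrophils. By summed UMIs, T cells were thus highest and neutrophils lowest among the 6 types that both libraries held in number, and the types between 15.5% and 16.6% overlapped in their quartiles.

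**Figure D1:**
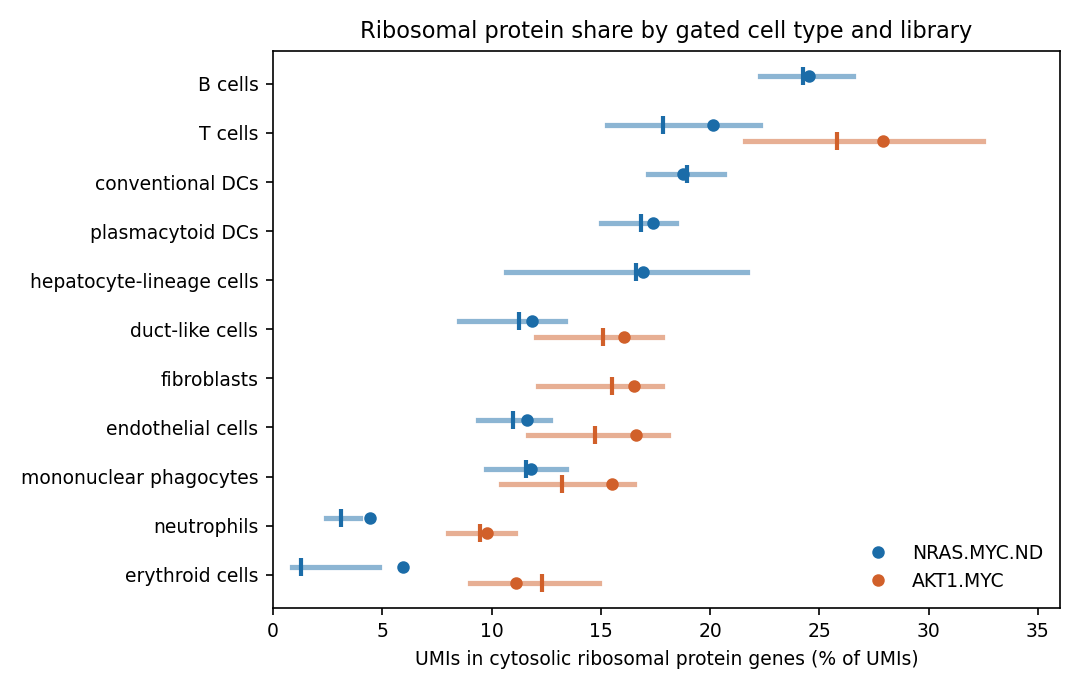
Ribosomal protein UMIs as a percentage of all UMIs (x axis) by gated type, for types with at least 50 cells in a library. Dots are sums over cells, ticks the median cell and bars the quartiles over cells; in all 6 types with both libraries the AKT1.MYC dot lies to the right, by 3.70 points in phagocytes to 7.79 points in T cells.

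In each of the 6 types with at least 50 cells in both libraries, the ribosomal protein share was higher in AKT1.MYC. In T cells it was 20.1% in NRAS.MYC.ND (1468 cells) and 27.9% in AKT1.MYC (85 cells), a log2 ratio of 0.47 (0.46 to 0.48). Endothelial cells held 11.6% (877 cells) and 16.6% (401 cells), a log2 ratio of 0.51. For duct-like cells, which carry cholangiocyte keratins, the values were 11.9% (50 cells) and 16.1% (2471 cells), a log2 ratio of 0.44. The quartiles over cells overlapped between the libraries in all 3 of these types.

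Mononuclear phagocytes held 11.8% (1154 cells) and 15.5% (2562 cells), a log2 ratio of 0.39, the smallest of the 6. Their depth differed, with medians of 8912 and 2325 UMIs per cell, and the gap between libraries was not even over depth. In cells of 1000 to 2000 UMIs the share was 10.2% in the first library and 10.99% in the second, and in cells of 5000 to 10000 UMIs it was 11.9% and 17.0%. The median cell was not higher in the second library at 1000 to 2000 UMIs, with 10.95% against 10.81%, nor at 2000 to 5000 UMIs, with 10.2% against 10.1%. Over cells of 1000 to 5000 UMIs the log2 ratio was 0.15. Resident Kupffer cells, gated by Clec4f, Vsig4, Timd4, Cd5l and Marco, held 11.6% (410 cells) and 14.1% (147 cells).

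**Figure D2:**
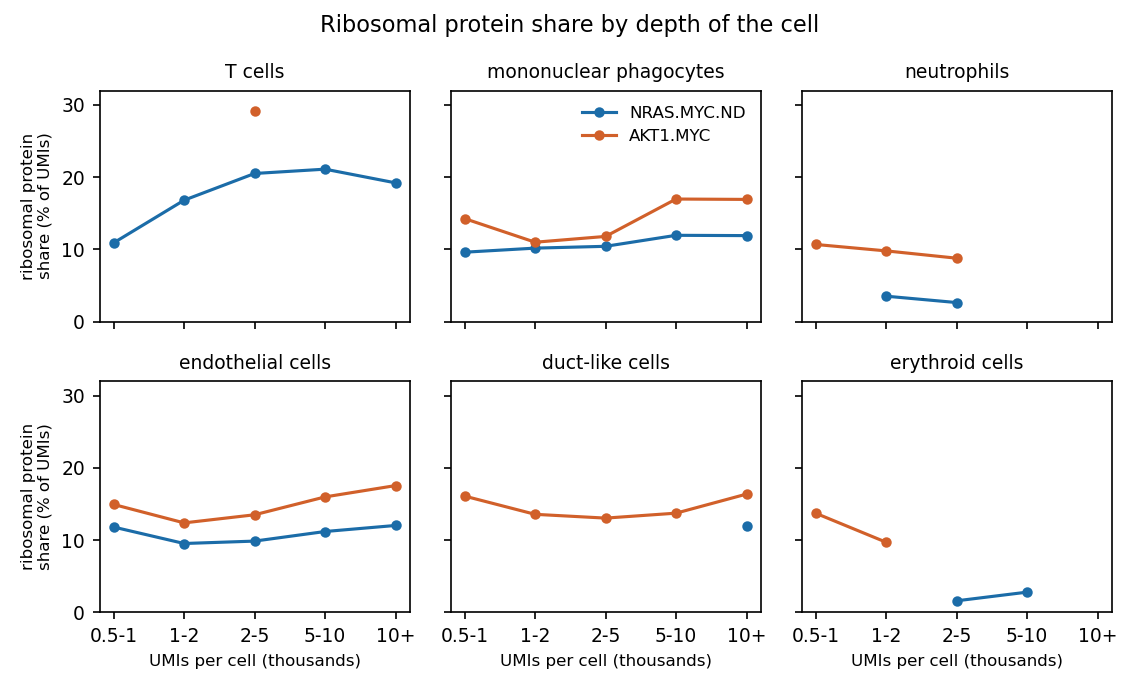
Ribosomal protein share of the summed UMIs (y axis) of cells grouped by their UMIs (x axis, in units of 1000), for the 6 compared types, where at least 20 cells of a library fell in a group. The AKT1.MYC line lies above the NRAS.MYC.ND line in every shared group, with the smallest gap in phagocytes of 1000 to 2000 UMIs (10.2% and 10.99%), where the median cell, not drawn, was at 10.95% and 10.81%. Erythroid cells have no shared group, T cells share only that of 2000 to 5000 UMIs, and duct-like cells only that of 10000 UMIs or more.

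Neutrophils and erythroid cells, whose messages are dominated by granule, S100 or haemoglobin genes, showed the largest ratios. Neutrophils held 4.45% (255 cells) and 9.79% (622 cells), a log2 ratio of 1.14, and here the quartiles over cells did not overlap, nor did they in erythroid cells. Of the NRAS.MYC.ND neutrophils, 18 had over 5000 UMIs and a share of 7.602%; the other 237 had 3.13%, against 9.32% in the 613 AKT1.MYC neutrophils of at most 5000 UMIs. Erythroid cells held 5.93% (66 cells) and 11.1% (77 cells), a log2 ratio of 0.90, with medians of 5345 and 959 UMIs per cell. Within the erythroid cells of NRAS.MYC.ND, 24 with at least 2 cycling markers had a share of 9.06% and 20 with none had 1.92%. With mitochondrial and haemoglobin UMIs left out of the denominator the erythroid log2 ratio was 0.38, with equal weight per cell it was 1.78, and in cells of 1000 to 5000 UMIs it was 2.51, so its size depends on which erythroid cells are counted and how.

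Epithelial markers, which the other types should lack and which are used here as a gauge of free RNA in droplets, were present in all of them, and their part in these values was not tested. They stood at 41.3 (NRAS.MYC.ND) and 32.4 (AKT1.MYC) per 10000 UMIs in neutrophils, 33.1 and 25.7 in T cells, 19.7 and 20.7 in phagocytes, 18.5 and 16.1 in endothelial cells, and 17.5 and 51.1 in erythroid cells. If that signal were all free RNA in the proportions of the whole library, it would make up 44.5% and 31.97% of neutrophil UMIs and 18.9% and 50.4% of erythroid UMIs. Subtracting it left the neutrophils of NRAS.MYC.ND with almost no ribosomal protein UMIs (a log2 ratio of 5.58), so no corrected share is given for them.

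Types with fewer than 50 cells in a library are given as values only. B cells, at 24.5% (341 cells) and 23.7% (20 cells), and hepatocyte-lineage cells, at 16.9% (255 cells) and 14.4% (27 cells), were lower in AKT1.MYC. Fibroblasts held 11.7% (39 cells) and 16.5% (543 cells), and NK cells 20.5% (42 cells) and 31.7% (18 cells). Hepatocyte-lineage cells, duct-like cells and those that passed both gates, pooled as epithelial cells, held 15.8% (314 cells) and 16.05% (2511 cells), a difference of 0.217 points, so the pooled epithelium did not show the gap seen in duct-like cells.

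T cells of 1 library also differed among themselves. They were split by UMIs of 6 naive and memory genes and of 6 inhibitory receptor and Tox genes, lists chosen with these data in view and holding no member. In NRAS.MYC.ND, 160 cells with at least 2 naive and memory genes and no inhibitory gene held 30.7%, and 745 with the reverse pattern held 17.1%, at medians of 3107.5 and 3034 UMIs per cell. The few such cells of AKT1.MYC held 32.2% (16 cells) and 21.98% (15 cells). T cells with at least 1 gene of each kind held 22.1% (309 cells) in the first library and 28.9% (24 cells) in the second. Inhibitory-gene cells made up 50.7% (48.2% to 53.3%) of T cells in the first library and 17.6% (10.2% to 27.4%) in the second. The 2 libraries thus differed in the makeup of their T cells, and lay 1.51 points apart among naive and memory cells, 4.91 among inhibitory-gene cells and 6.84 among cells with both kinds of gene. Cells with Cd8a or Cd8b1 and no Cd4 held 19.4% (1079 cells) and 29.9% (37 cells).

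Cycling markers went with a higher share in epithelial cells, endothelial cells and phagocytes, as in the erythroid cells above. Duct-like cells of AKT1.MYC with at least 2 cycling markers held 18.0% (400 cells, median 26808 UMIs), and those with none 14.6% (1541 cells, median 1694 UMIs). Endothelial cells of AKT1.MYC held 18.4% and 15.8% in the same split, and those of NRAS.MYC.ND 12.2% and 11.4%. Phagocytes held 12.2% and 11.7% in NRAS.MYC.ND and 16.1% and 15.1% in AKT1.MYC, and hepatocyte-lineage cells of NRAS.MYC.ND 18.1% and 17.2%. T cells of NRAS.MYC.ND went the other way, with 18.3% in 93 cycling cells and 20.9% in 1149 others. Cycling cells were deeper in each of these, so cycling and depth cannot be told apart here.

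Single members mostly lay near the shift of the module as a whole. In T cells, 28 of 82 measured members (at least 50 UMIs over both libraries in the type) were at least 1.5-fold higher in AKT1.MYC by CPM (UMIs per 1000000 of the type's sum) and 1 lower, where 17% and 28.1% of all 7886 measured genes were; the median log2 ratio was 0.42 for members and -0.13 for all genes. In endothelial cells 35 of 82 were higher and 0 lower, against a background of 12.6% and 21.9%, with medians of 0.49 and -0.13. Duct-like cells had 24 of 83 higher and 0 lower, against 18.3% and 24%, with medians of 0.40 and -0.07. In phagocytes 21 of 82 were higher and 1 lower, against 20.6% and 14.9%, so the share of members called higher (25.6%) was near the background there, while their median of 0.34 stood beside 0.07; over phagocytes of 1000 to 5000 UMIs, 11 of 81 members were higher, where 24.4% of all genes were. In these 4 types the members' medians lay below 1.5-fold, so most members shifted by less than the line used for a call.

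Neutrophils had 72 of 80 measured members higher in AKT1.MYC and 0 lower, against 39.3% and 16.6% of all genes, with medians of 1.17 and 0.31. Erythroid cells had 55 of 78 higher and 0 lower, against 41.4% and 33.9% of only 735 measured genes, with medians of 0.86 and 0.20. Members not measured were Rpl3l in all 6 types, Rpl32l in the 5 types other than duct-like cells, Rpl6l and Rps4l in neutrophils and erythroid cells, and Rpl13a and Rpl7l1 in erythroid cells. The members' medians exceeded those of all genes by 0.27 in phagocytes to 0.86 in neutrophils on the log2 scale.

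**Figure D3:**
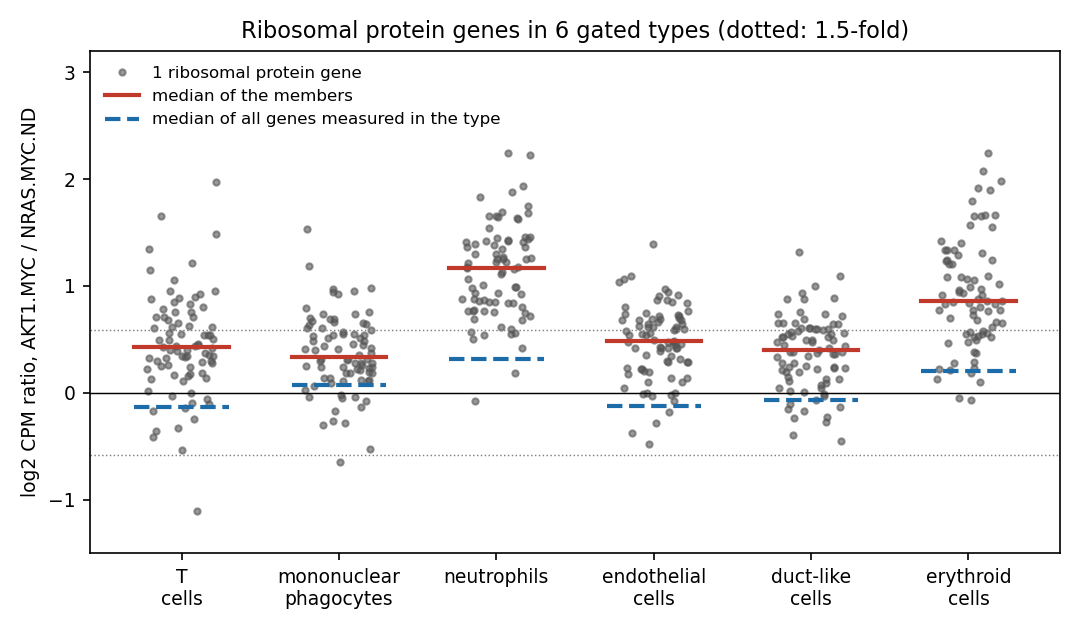
The log2 ratio of CPM in AKT1.MYC over NRAS.MYC.ND (y axis) for each measured member, 1 dot per gene, in the 6 compared types. Red lines are the members' medians (0.34 in phagocytes to 1.17 in neutrophils) and dashed blue lines those of all measured genes (-0.13 to 0.31); dotted lines mark 1.5-fold.

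The subunits kept their proportion: large-subunit genes made up between 52.4% and 55.5% of ribosomal protein UMIs in the 12 sums of the compared types. By CPM the median log2 ratio was 0.34 for large and 0.55 for small subunit genes in T cells, 0.42 and 0.60 in endothelial cells, 0.37 and 0.50 in duct-like cells, and 1.04 and 1.23 in neutrophils. The stalk proteins Rplp0, Rplp1 and Rplp2, which recruit elongation factors, had a median of 0.71 in T cells and 1.54 in neutrophils. Rpl5 and Rpl11, which join 5S rRNA and can bind Mdm2, parted in T cells: Rpl5 was at 773 CPM in the first library against 604 in the second, and Rpl11 at 3134 against 3752. Neither of the pair passed 1.5-fold there.

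To see genes that moved against the rest, each member was expressed as a share of ribosomal protein UMIs. On this scale few passed 1.5-fold; the shares of all genes beside them are of ratios taken to the same sum. In T cells 6 members were higher in AKT1.MYC and 8 lower, against 6.51% and 51.2% of all measured genes (57.7% either way). Phagocytes had 3 higher and 5 lower, against 11.5% and 31.4% (42.9% either way). Neutrophils had 6 and 5, against 7.22% and 59.5% (66.7%), and endothelial cells 1 and 5, against 4.77% and 53.7% (58.5%). Duct-like cells had 2 and 7, against 8.78% and 45.6% (54.3%). Erythroid cells, with the fewest UMIs, had most, 12 and 10, against 18.2% and 53.3% (71.6%). Of the 65 members with at least 50 UMIs in each library of every type, 15 were above 0 in all 6 types and 12 below 0 in all 6. No share of all genes is given beside these counts, so how unusual they are cannot be read from them. Across these 65, the log2 ratios of any 2 types had Pearson correlations of 0.45 to 0.90 with a median of 0.80 over 15 pairs; all pairs share the same 2 libraries and their free RNA, so the number is a description.

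Calls that recur over types are given here without the share of all genes that do so, and serve to name members. The members past 1.5-fold in the same direction in at least 3 types were 4 higher in AKT1.MYC (Rps18, Rps29, Rpl37a, Rps27) and 6 lower (Rps10, Rpl13a, Rpl27, Rpl24, Rpl15, Rps7). They lie apart in the genome: on GRCm38, by GENCODE vM21, the genes span chr17:33951999-33956001 (Rps18), chr17:27630418-27636669 (Rps10), chr12:69157722-69159186 (Rps29), chr12:28630854-28635953 (Rps7), chr1:72711290-72713813 (Rpl37a), chr3:90212522-90213651 (Rps27), chr7:45125558-45128761 (Rpl13a), chr11:101442298-101445529 (Rpl27), chr16:55966275-55971435 (Rpl24) and chr14:18267823-18271391 (Rpl15). Rps18, a head protein of the small subunit, made up 0.557% of ribosomal protein UMIs of NRAS.MYC.ND T cells against 1.12% of those of AKT1.MYC, 0.608% and 1.06% in phagocytes, 0.475% and 1.01% in neutrophils, 0.634% and 1.17% in endothelial cells and 0.747% and 1.38% in duct-like cells. In these 5 types the log2 ratio lay between 0.80 and 1.09. Erythroid cells were at 0.672% and 0.878%, with an interval of -0.01 to 0.77 that includes 0. By CPM Rps18 was higher in AKT1.MYC in all 6, at 1121 and 3140 in T cells and 212 and 991 in neutrophils.

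Rps29, a zinc-binding protein of the small subunit, stood at 0.911% and 2.07% in T cells (log2 ratio 1.18), 1.35% and 2.92% in neutrophils (1.11), 1.26% and 2.35% in erythroid cells (0.89) and 1.03% and 1.62% in duct-like cells (0.65). Phagocytes and endothelial cells had a log2 ratio of 0.58 each, just under the 1.5-fold line. Rps27, also zinc-binding, stood at 0.906% and 1.66% in T cells and 0.452% and 1.15% in erythroid cells (1.34, 0.95 to 1.73), and closer together, at 1.09% and 1.33%, in endothelial cells (0.29). Rpl37a, a zinc-binding large-subunit protein, had log2 ratios of 0.46 in endothelial cells to 1.17 in erythroid cells. The intervals of these 3 genes lay above 0 in all 6 types.

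Rps10, a small-subunit protein whose gene is mutated in some Diamond-Blackfan anaemia, was lower in the 5 types with enough UMIs. It made up 0.961% of ribosomal protein UMIs of T cells in the first library and 0.480% in the second (0.499-fold), 0.709% and 0.376% in phagocytes (log2 ratio -0.92), 0.958% and 0.414% in neutrophils (-1.21), 0.641% and 0.347% in endothelial cells (-0.89), and 0.767% and 0.415% in duct-like cells (-0.89). By CPM it was also lower in AKT1.MYC, at 1935 against 1339 in T cells and 910 against 667 in duct-like cells, although the module as a whole was higher. In neutrophils the CPM were 427 and 406, a difference within counting error.

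Rpl13a, a large-subunit protein also known for a role in silencing inflammatory messages, stood at 0.161% and 0.0783% in phagocytes (log2 ratio -1.04), 0.202% and 0.102% in endothelial cells (-0.99) and 0.184% and 0.103% in duct-like cells (-0.83). Its CPM in phagocytes, 190 against 121, made it the only member at least 1.5-fold lower by CPM there, and at 380 against 176 it was the only one in T cells, on 42 UMIs in AKT1.MYC. Rpl27 had log2 ratios within the module of -0.44 in duct-like cells to -0.88 in T cells over 5 types, and Rpl24 -0.37 in neutrophils to -0.80 in T cells. Rpl15 lay between -0.44 and -0.68 over 5 types and Rps7 between -0.47 and -0.72 over 6. By CPM these 4 genes were level or slightly lower in AKT1.MYC outside neutrophils and erythroid cells, where they were higher.

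**Figure D4:**
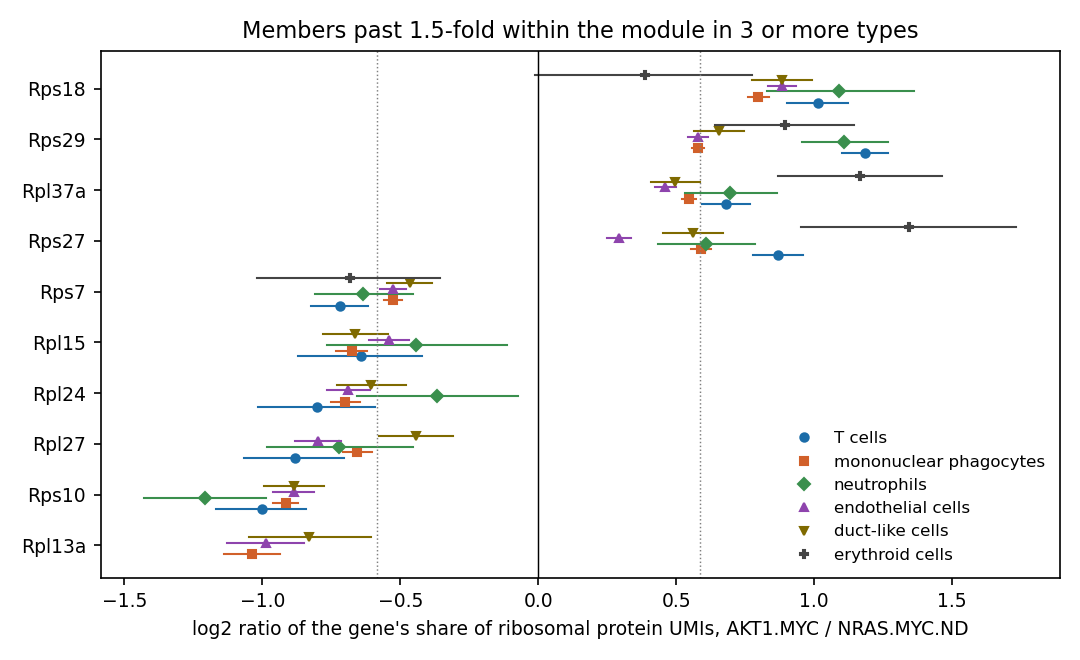
The log2 ratio, AKT1.MYC over NRAS.MYC.ND, of each gene's share of ribosomal protein UMIs (x axis) for the 10 members past 1.5-fold (dotted lines) in at least 3 types, with 95% counting intervals; types where a library held fewer than 50 UMIs of the gene are left out. Each gene's points lie on 1 side of 0 in the types shown, and only the erythroid interval of Rps18 reaches 0.

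Other members passed 1.5-fold within the module in 1 or 2 types. Rps27a, whose protein is made fused to ubiquitin, was 4.23% of ribosomal protein UMIs in neutrophils of NRAS.MYC.ND and 2.19% in those of AKT1.MYC (log2 ratio -0.95), while its CPM were 1886 and 2146 and its log2 ratio in the other 5 types lay between -0.02 and -0.29. Rps6, the small-subunit protein phosphorylated by the S6 kinases, was lower within the module in duct-like cells, 0.268% and 0.164% (-0.71), and endothelial cells, 0.408% and 0.272% (-0.59). Rpl5 was lower in T cells, 0.384% and 0.217% (-0.83). Over the 5 types with enough UMIs, Rps6 lay between -0.21 and -0.71 and Rpl5 between -0.28 and -0.83. Rpl12, next to the stalk, was higher in neutrophils, 0.527% and 0.915% (0.80), and erythroid cells, 0.617% and 1.03%. Endothelial cells (0.56) lay just under the 1.5-fold line. The ratio of Rpl12 was above 0 in all 6 types, between 0.28 and 0.80. In erythroid cells, where each member rests on few UMIs, Rpsa (-0.77) and Rps3a1 (-0.69) were lower within the module.

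Several members marked a cell type in both libraries, at least 1.5-fold from the median of the other types. T cells had more Rps15a, 1.91% and 2.10% of ribosomal protein UMIs in the 2 libraries (NRAS.MYC.ND first) against medians of 1.11% and 1.30% elsewhere. They had less Rpl10 (0.584% and 0.529% against 1.07% and 0.864%) and less Rps27l (0.0975% and 0.129%). Neither was particular to T cells: B cells of NRAS.MYC.ND held 0.611% Rpl10 and 0.0586% Rps27l, and plasmacytoid dendritic cells 0.118% Rps27l. Endothelial cells had more Rps6, and neutrophils more Rps9 (2.22% and 1.93% against 1.02% and 1.27%) and Rps27 (1.14% and 1.74%). Rps27 was not particular to neutrophils: B cells of NRAS.MYC.ND held 1.15% and T cells of AKT1.MYC 1.66%. Duct-like cells had more Rpl22l1, Rps27l and Rps4l, and phagocytes less Rps4l (0.00963% and 0.0212%). The last was not particular to phagocytes, since T cells were lower still, at 0.00478% and 0.0135% on 51 and 9 UMIs.

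The share of 2 paralogs was larger in epithelial cells than in lymphocytes, phagocytes and endothelial cells. Rps27l, a p53-responsive relative of Rps27, made up 53.2% (51.9% to 54.4%) of the UMIs of that pair in hepatocyte-lineage cells of NRAS.MYC.ND and 52.4% (NRAS.MYC.ND) and 36.3% (AKT1.MYC) in duct-like cells. It was 26.9% and 21.3% in phagocytes, 19.1% and 17.0% in endothelial cells, 9.71% and 7.25% in T cells and 4.83% in B cells of NRAS.MYC.ND. Erythroid cells, with 75 and 42 Rps27l UMIs, were at 37.9% and 29.0%, and their intervals overlapped. In duct-like cells the CPM of Rps27l were 931 and 960 and those of Rps27 845 and 1685, so by CPM it was Rps27 that differed within the pair. As shares of ribosomal protein UMIs both differed there, with Rps27 higher in AKT1.MYC (log2 ratio 0.56) and Rps27l lower, at 0.785% and 0.598%. Rpl22l1, a relative of Rpl22, was 49.4% of its pair in hepatocyte-lineage cells, 39.3% and 44.5% in duct-like cells, 33.2% and 29.9% in T cells, 25.8% and 29.9% in phagocytes, 21.1% in B cells and 17.9% in conventional dendritic cells. For this pair, too, erythroid cells lay high in NRAS.MYC.ND, at 47.7% (42.3% to 53.1%), against 33.6% in AKT1.MYC, and neutrophils were at 35.6% and 31.7%. The promoter window of Rpl22l1, printed above, carries a run of 10 C and T letters beginning 1 base after the start.

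**Figure D5:**
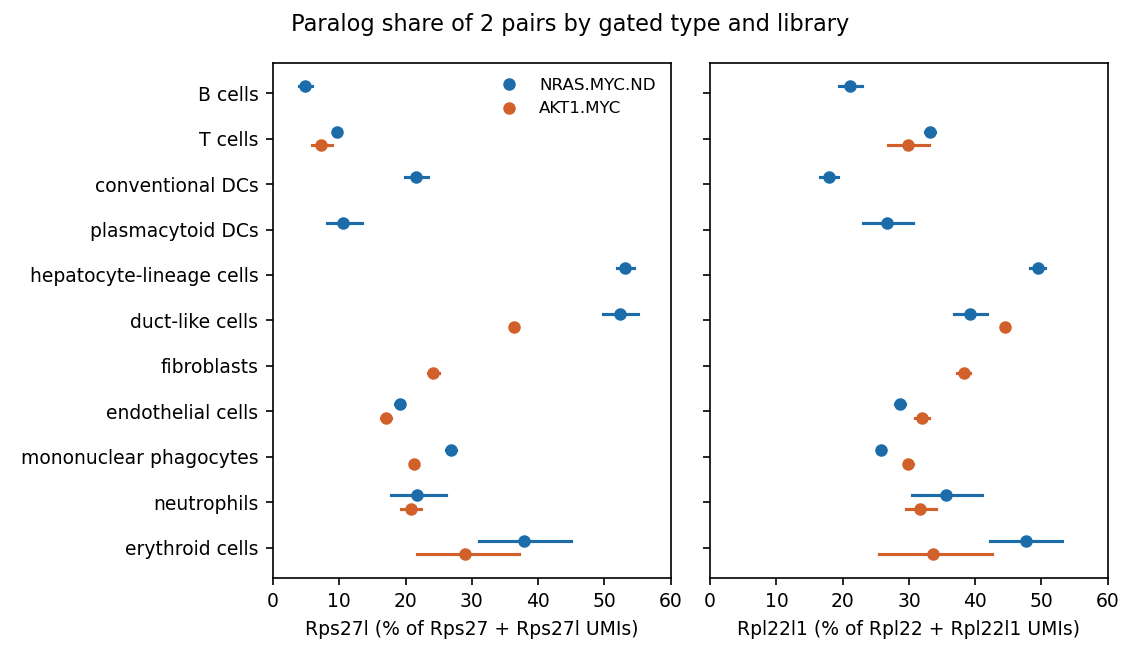
Rps27l (left) and Rpl22l1 (right) as a percentage of the UMIs of their pair (x axes) by gated type and library, with exact 95% intervals, where a library held at least 50 cells of the type. For Rps27l, hepatocyte-lineage and duct-like cells of NRAS.MYC.ND lie highest (53.2% and 52.4%) and B cells lowest (4.83%).

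Rps4l, an intronless copy of Rps4x, was 5.39% and 4.09% of its pair in duct-like cells, 3.64% and 3.34% in endothelial cells and 3.33% in fibroblasts of AKT1.MYC, but 0.448% and 1.00% in phagocytes and 0.220% and 0.643% in T cells. In phagocytes its share of ribosomal protein UMIs was 2.21-fold higher in AKT1.MYC (124 and 361 UMIs). There it stood at 11.4 and 32.9 CPM, beside 126 and 147 CPM in duct-like cells, and the part of free RNA in the phagocyte values was not tested. Rpl7l1 was 4.29% to 10.99% of its pair with Rpl7 across the compared types. Rpl36al, which lies outside the naming rule, took a smaller part of its pair with Rpl36a in AKT1.MYC in 5 of the 6 types. It was 25.3% and 14.1% of the pair in T cells, 29.0% and 17.1% in phagocytes, 15.97% and 10.8% in endothelial cells and 27.4% and 16.3% in duct-like cells. Neutrophils, at 24.5% and 17.6%, rested on 49 and 170 Rpl36al UMIs and their intervals overlapped, and erythroid cells were level at 19.2% and 19.05%. The restricted paralogs Rpl3l, Rpl10l and Rpl39l, known mainly from muscle and testis, had 115, 0 and 68 UMIs in both whole libraries. Reads of a member that also match a near-identical copy cannot be placed with certainty, so values of Rps4l, Rpl6l, Rpl32l and of members with many pseudogenes are uncertain; the 200 separately annotated ribosomal protein pseudogenes with UMIs took up 0.0318% and 0.0430% of all UMIs.

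Genes around the ribosome were read against the same shares of all genes as the members. Fau, which encodes a small-subunit protein fused to a ubiquitin-like one, and Rack1, a scaffold on the small subunit, lie outside the naming rule; both were higher in AKT1.MYC by less than 1.5-fold in T cells, phagocytes, endothelial cells and duct-like cells. Of 16 other translation genes whose messages begin with such a tract, 3 were at least 1.5-fold higher and 3 lower in T cells, 2 and 1 in phagocytes, 3 and 0 in endothelial cells and 4 and 0 in duct-like cells. Of all measured genes, 17% were higher and 28.1% lower in T cells, 20.6% and 14.9% in phagocytes, 12.6% and 21.9% in endothelial cells and 18.3% and 24% in duct-like cells. In neutrophils 13 of the 16 were higher and 0 lower, where 39.3% and 16.6% of all genes were, and in erythroid cells 7 of 14 measured were higher and 1 lower, against 41.4% and 33.9%. Elongation factor Eef1b2 was at 1101 and 1662 CPM in T cells and 747 and 1252 in duct-like cells, and Eef1a1 at 6514 and 6090, and 5570 and 5174. Of 16 nucleolar ribosome biogenesis genes, 10 were higher and 0 lower in duct-like cells, where 18.3% and 24% of all genes were, with a median log2 ratio of 0.71; Ncl, which encodes nucleolin, was at 379 and 619 CPM and Nhp2 at 116 and 288. In T cells 3 of 14 measured were higher and 2 lower, in phagocytes 3 of 16 and 0, in endothelial cells 3 of 15 and 0, and in neutrophils 6 of 6 and 0. The shares of all genes in these types are those given above for the translation genes. Proteins of the mitochondrial ribosome had median log2 ratios of 0.10 in T cells, 0.23 in phagocytes, 0.41 in endothelial cells and 0.43 in duct-like cells over 76 or 77 measured genes, and 1.10 in neutrophils over 49.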

How the data were processed

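Values are whole-number UMI counts for each gene in each barcode, as deposited by the authors. Cell Ranger and the mm10 build are named in the submitters' processing notes, with version 6.1.2, where the file headers give 6.1.1. The annotation release and the treatment of reads that match several genes are not given in the sources used here. Barcodes under 500 UMIs or 250 genes, or over 20% mitochondrial, were removed (351 and 456). A cell took a type when it had at least 2 of the type's markers, their UMIs passed a minimum per 10000 (20 for T cells, 100 for phagocytes, 200 for neutrophils, 30 for endothelial, 75 for duct-like, 200 for hepatocyte-lineage and 1000 for erythroid cells) and no other gate was passed, except that T cells could pass the NK gate and plasmacytoid the conventional dendritic gate. No doublet caller was run: 131 and 325 barcodes passing several gates were left out, and one alternative drops the 5% of cells with most UMIs. UMIs were summed per type and library, giving CPM of the sum; cells are not replicates. Intervals are exact binomial or conditional binomial ones at 95%, computed with scipy 1.17.1, numpy 2.4.6 and pandas 2.3.3 in Python 3.11.15 and tested on simulated data. A member was called at 1.5-fold. Named members are, per type, the 3 highest and 3 lowest within the module with at least 50 UMIs in each library, those past 1.5-fold in at least 3 types, and the paralogs; members named as marking a type, and those of the other lists, were chosen after their values were seen. Members, lists and markers were chosen with earlier results of these data known, and gate minimums and the T cell split after seeing the data. Coordinates are GENCODE vM21 and RefSeq on GRCm38. Results of some genes are not reported here.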

Additional observations from a re-analysis of the deposited data

How the results depend on the processing

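No paired analysis was possible because each model has 1 library. The share of UMIs was higher in AKT1.MYC in all 6 types under every alternative run, and no called within-module ratio of a member named by the rule changed sign; over all 70 such calls, 2 of 726 values did, Rpl36 (1.01 to -0.06) and Rps28 (0.66 to -0.09), both in erythroid cells of 1000 to 5000 UMIs. The log2 ratio of the share was 0.46 in T cells, 0.37 in phagocytes, 1.58 in neutrophils, 0.50 in endothelial, 0.39 in duct-like and 1.503 in erythroid cells without the 5% of cells with most UMIs. With equal weight per cell it was 0.44, 0.27, 1.47, 0.46, 0.37 and 1.78 in the same order, and with 10% free RNA subtracted 0.49, 0.42, 1.43, 0.56, 0.48 and 1.07. In cells of 1000 to 5000 UMIs it was 0.49 in T cells, 0.15 in phagocytes, 1.58 in neutrophils, 0.44 in endothelial and 2.51 in erythroid cells. Free RNA subtracted at a share taken from epithelial markers, an alternative chosen after seeing the data, gave 0.53, 0.47, 5.58, 0.62 and 0.42 for those 5 types; neither of these settings was run for duct-like cells. Without mitochondrial and haemoglobin UMIs it was 0.50 in endothelial, 0.43 in duct-like and 0.38 in erythroid cells. Phagocytes gave 0.39 at a 10% mitochondrial limit and 0.40 at a 1000 UMI minimum, erythroid cells 0.66 at that minimum, and neutrophils 1.11 with 1 more marker. At a fold of 2, by construction, 7 members were higher in AKT1.MYC in T cells, 2 in phagocytes, 46 in neutrophils, 4 in endothelial, 2 in duct-like and 30 in erythroid cells, where 7.23%, 11.2%, 23.8%, 5.55%, 9.07% and 29.7% of all genes were, and 5, 2, 3, 0, 0 and 4 passed within the module, against 33%, 21.5%, 47%, 29.3%, 29.5% and 54%. In phagocytes of 1000 to 5000 UMIs 11 members were higher (all genes 24.4%). With free RNA from epithelial markers 3 members of 3 measured were higher in neutrophils (all genes 42%) and 32 of 75 in erythroid cells (19.8%), and 3 and 48 passed within the module (99.3% and 80.5%). In neutrophils 19 passed within the module under each of 3 settings (5% of cells left out, 10% free RNA, cells of 1000 to 5000 UMIs; all genes 76.5%, 75.6% and 76.6%) and in erythroid cells 13 of 56 at 1000 to 5000 UMIs (68%); the cause was not tested. Depth limits erythroid values, at a median of 959 UMIs in AKT1.MYC.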

Other observations

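Some members marked types seen with enough cells only in NRAS.MYC.ND; they were picked after their values were seen, and have no second library beside them. Rpl31, a large-subunit protein, made up 1.27% of ribosomal protein UMIs in plasmacytoid dendritic cells (605 UMIs), against a median of 0.352% over the other types. Rps24, a small-subunit protein, made up 4.95% in B cells against 3.14%. Hepatocyte-lineage cells had more Rplp1 of the stalk (2.39% against 1.49%), more Rps6 (0.339% against 0.186%) and less Rpl9 (1.13% against 1.78%). The first 2 were not particular to them: phagocytes of NRAS.MYC.ND held 2.17% Rplp1, and endothelial cells held more Rps6, 0.408%. Hepatocyte-lineage cells of NRAS.MYC.ND with an Nras UMI held a ribosomal protein share of 16.9% (206 cells, median 7552 UMIs), and those without 18.0% (49 cells, median 1107 UMIs); at unequal depth, no comparison of the 2 was made.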
